A study of Mus musculus with 19 samples.

Results

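Glutathione S-transferases (GSTs) join reduced glutathione to electrophilic compounds and so prepare them for export from the cell. The soluble enzymes are grouped in classes named by Greek letters, and hepatocytes hold large amounts of the alpha, mu and pi classes. Many of their genes are classical targets of NRF2, a transcription factor that is released from its inhibitor KEAP1 by electrophiles and that binds, with a small MAF partner, to antioxidant response elements. Thioacetamide (TAA) is a hepatotoxin that hepatocytes oxidise to reactive metabolites.

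The 10 genes described here are the alpha class genes *Gsta2*, *Gsta3* and *Gsta4*, the mu class genes *Gstm1*, *Gstm2*, *Gstm3*, *Gstm4* and *Gstm6*, the pi class gene *Gstp1* and the theta class gene *Gstt1*, of 31053 genes in the table. They were chosen by name, with the counts and the differences between these same groups already known, so that no p-value is given for any of them and their values are a description. All 10 had counts in each library and passed the filter on low counts in each comparison. Another 22 genes of the family were looked up beside them.

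The libraries were made from livers of male C57BL6J mice that fall in 3 groups. Their given age of 6 to 8 weeks is not that at sacrifice, since the treatment below lasted longer. Vehicle mice received PBS (5 libraries). AAV-GFP mice received TAA in rising doses for 12 weeks and, at week 10, an AAV8 vector with the green fluorescent protein gene (7 libraries). AAV-miR-34b/c mice received the same TAA and, at week 10, AAV8 vectors for the microRNAs miR-34b and miR-34c together (7 libraries). Both vectors use the TBG promoter, which is active in hepatocytes, and TAA-treated mice were sacrificed 4 weeks after injection. By this schedule TAA had ended before the livers were taken, so the values are not levels under ongoing TAA. Among these libraries there is thus no group with TAA and no vector, and none with a vector and no TAA. The labels number the libraries of each group as biological replicates, and if any came from the same animal the errors below would be too small. The question of the design is how hepatic genes differ from vehicle after TAA with a control vector, and how they differ when the vector carries miR-34b/c.

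Total counts on genes ran from 2214073 to 5208405 per library (median 2991704), and the 10 genes took 0.241% to 0.261% of them in vehicle, 0.317% to 0.455% in AAV-GFP and 0.196% to 0.229% in AAV-miR-34b/c. Hepatocyte markers summed to 56627 to 89418 CPM (CPM is the count scaled to the TMM-normalized library size) over all libraries, with overlapping ranges in the 3 groups and none of the 9 at 0. Sums of 15 markers of activated hepatic stellate cells (HSC) were 82.0 to 161 CPM in vehicle, 149 to 341 in AAV-GFP and 80.9 to 155 in AAV-miR-34b/c, and those of 9 cholangiocyte markers were 138 to 188, 225 to 360 and 296 to 561, with *Cftr* at 0 in vehicle. Sums of 14 pericentral hepatocyte markers were 4899 to 5657, 2277 to 4673 and 3559 to 4092, and those of 6 neutrophil markers 16.4 to 80.5, 14.8 to 74.1 and 63.5 to 1913, with *Ly6g* at 0 in vehicle. Sums of 12 macrophage markers were 521 to 1008, 444 to 723 and 655 to 891, with none at 0, 4 of 11 tested lower in AAV-GFP than in vehicle (median log2 fold change -0.49) and 2 of 11 higher in AAV-miR-34b/c than in AAV-GFP (0.39) by edgeR, beside 5.19% and 1.95% of all genes tested. The part of these markers in the values below was not tested. Within groups, 6 pairs of libraries were more alike than all others (coefficient of variation beyond counting noise under 0.2), and where summing each such pair to 1 sample ends the call of 1 of the 10 genes, the summed value is given too.

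The libraries read the 3′ ends of transcripts for 100 bases, so whether a gene of this family can be told from its copies depends on the last part of its transcript. Over the last 500 bases of the annotated transcripts (GENCODE M21, GRCm38), 8 of the 10 genes shared no stretch of 100 bases with a transcript of another gene. *Gsta2* shared 6.73% of its stretches with *Gm10639*, and *Gstp1* shared 67.3% with *Gstp2* and the pseudogene *Gstp-ps*. With the last 1000 bases, 6 of the 10 genes shared a stretch. The share of *Gsta2* was 13.4% over the last 300 bases and 35.0% over the last 1000, there also with *Gm3776* and *Gsta1*. That of *Gstp1* was 100% and 52.8%. The stretches of 30 bases below are shown because they carry these differences, with capitals at the bases at which the 2 genes of a pair differ. *Gsta2* and *Gsta1* were 94.3% identical over the last 300 bases and differ at 5 bases of the first pair, from 135 to 106 bases before the end of the transcript. *Gsta2* and *Gm10639* were 97.0% identical and differ at 2 bases of the second pair, while the last 30 bases of *Gstp1* and *Gstp2* are the same, as are all 300 that were aligned.
Gsta2, first pair: aagcaaggaaggTtttcaagTttTagtgTG
Gsta1, first pair: aagcaaggaaggCtttcaagAttCagtgAA
Gsta2, second pair: tgctggaacttctTctctatgttgaagagC
Gm10639, second pair: tgctggaacttctCctctatgttgaagagT
Gstp1 and Gstp2: cccagcactaataaagtttgtaagacagaa

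The copies themselves were hardly counted. *Gsta1* had 0 to 3 counts per library in vehicle, 1 to 15 in AAV-GFP and 0 to 1 in AAV-miR-34b/c, and *Gm10639* had 6 counts in all 19 libraries. *Gstp2* had 54 counts in all, against 4556 for *Gstp1*. Reads that fit both copies can have been lost or assigned to one of them, so the level of *Gstp1* is uncertain. For *Gsta2* this holds for the shared part of its end, 6.73% to 35.0% of its stretches by the length taken.

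By edgeR, 6 of the 10 genes were called higher in AAV-GFP livers than in vehicle livers, beside 7.54% of all genes tested. *Gsta2* was 5.10 times as high and *Gstm3* 5.05 times, *Gstm1* 3.72 times, *Gstm2* 2.65 times, *Gstm4* 1.76 times and *Gsta4* 1.62 times, as ratios of the mean CPM. In AAV-miR-34b/c livers, *Gsta2* and *Gstm4* were at 1.05 and 1.04 times the vehicle mean and *Gsta4* at 0.764 times that mean, while the means of *Gstm1*, *Gstm2* and *Gstm3* lay between those of the other groups. As these are bulk livers, fewer cells that express a gene and less transcript per cell cannot be told apart.

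**Figure D1:**
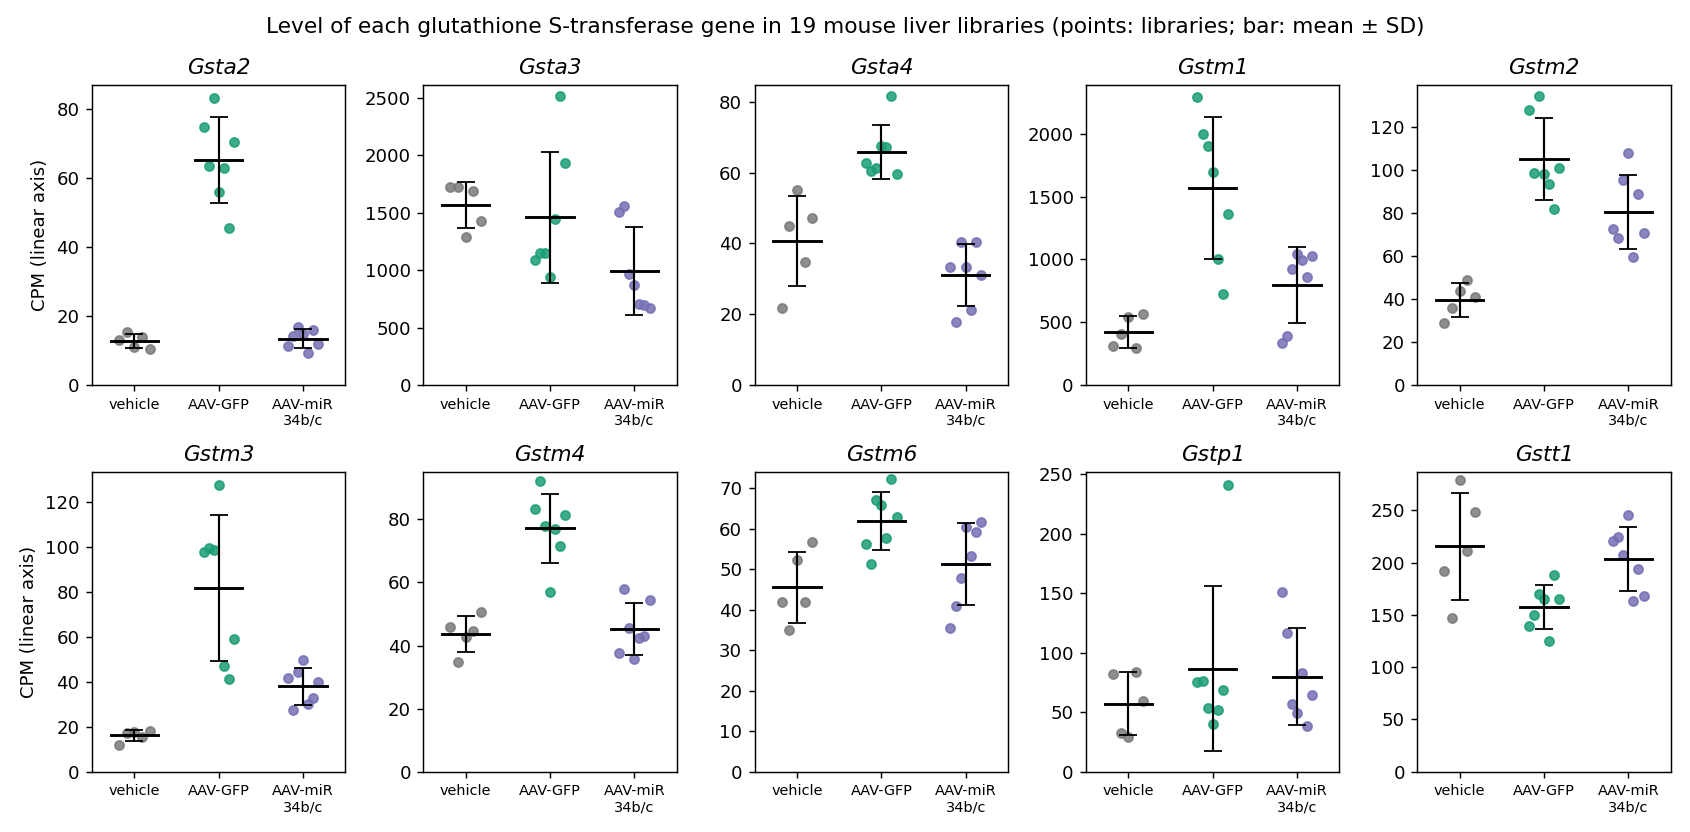
CPM of each of the 10 genes (linear axis from 0) in every library of the 3 groups (vehicle, AAV-GFP, then AAV-miR-34b/c), with 1 point per library and the mean ± SD as bars. For *Gsta2* the 7 AAV-GFP libraries sit between 45.5 and 83.4 CPM, above all libraries of both other groups, whereas the ranges of *Gsta3*, *Gstm6*, *Gstp1* and *Gstt1* overlap between AAV-GFP and vehicle.

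The 3 alpha class genes differed in their patterns. *Gsta2* (ENSMUSG00000057933), on the minus strand of chromosome 9 from 78331018 to 78355788, encodes a subunit that is known to be inducible in mouse liver. It was at 13.1, 15.5, 11.1, 13.8 and 10.5 CPM in the 5 vehicle libraries, and ran from 45.5 to 83.4 CPM (median 63.4) in AAV-GFP and from 9.28 to 16.9 CPM (median 14.3) in AAV-miR-34b/c. Every AAV-GFP library was above every other library, and the vehicle and AAV-miR-34b/c ranges overlapped. Means were 12.8 ± 2.03 (SD, n = 5), 65.2 ± 12.5 (SD, n = 7) and 13.5 ± 2.77 CPM (SD, n = 7), from 25 to 57 counts, 140 to 288 counts and 26 to 79 counts in a library. The edgeR log2 fold change was 2.34 (standard error 0.20) for AAV-GFP against vehicle, -2.28 (0.17) for AAV-miR-34b/c against AAV-GFP and 0.08 (0.21) for it against vehicle. Leaving out any 1 library kept the first between 2.28 and 2.42 and the second between -2.35 and -2.20.

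*Gsta4* (ENSMUSG00000032348), on the plus strand of chromosome 9 from 78182774 to 78209349, encodes the subunit known for conjugating 4-hydroxynonenal, a product of lipid peroxidation. Vehicle libraries were at 21.8, 44.8, 55.0, 34.6 and 47.3 CPM, AAV-GFP libraries at 59.7 to 81.6 CPM (median 62.7) and AAV-miR-34b/c libraries at 17.9 to 40.5 CPM (median 33.2). As with *Gsta2*, no AAV-GFP library overlapped with either other group. The rise over vehicle was smaller, at a log2 fold change of 0.70 (standard error 0.20), and it was no longer called without vehicle library 1 (0.55), without vehicle library 4 (0.66) or with close libraries summed (0.68, 0.22). The difference of AAV-miR-34b/c from AAV-GFP was -1.09 (0.18), and that from vehicle -0.37 (0.24). 

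*Gsta3* (ENSMUSG00000025934), on the plus strand of chromosome 1 from 21240589 to 21265661, encodes the subunit to which mice owe much of their resistance to aflatoxin. It was the most counted of the 10 genes in vehicle, at 1722, 1723, 1291, 1687 and 1425 CPM. AAV-GFP libraries spread from 939 to 2519 CPM (median 1149) and AAV-miR-34b/c libraries from 672 to 1562 CPM (median 867). All 3 ranges overlapped, although 5 of 7 AAV-miR-34b/c libraries were below every vehicle library. Log2 fold changes were -0.10 (standard error 0.22) for AAV-GFP against vehicle, -0.56 (0.25) for AAV-miR-34b/c against AAV-GFP and -0.65 (0.22) for it against vehicle. The last was called lower, but in only 3 of the 12 fits that left out 1 library, where it ran from -0.80 to -0.57, and not with close libraries summed (-0.73, 0.29) or with all 3 groups in one fit. The second was called with library size only.

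The 5 mu class genes lie in one cluster on the minus strand of chromosome 3, in the order *Gstm6*, *Gstm3*, *Gstm2*, *Gstm1* and *Gstm4*, from 107938847 to 108044894. The size of their changes did not follow that order. *Gstm1* (ENSMUSG00000058135), the main hepatic mu class gene by counts, was at 309, 405, 540, 293 and 562 CPM in vehicle, at 725 to 2290 CPM (median 1698) in AAV-GFP and at 334 to 1044 CPM (median 923) in AAV-miR-34b/c. All 7 AAV-GFP libraries were above all vehicle libraries, 5 of 7 AAV-miR-34b/c libraries were too, and 2 AAV-miR-34b/c libraries (334 and 393 CPM) lay within the vehicle range. The log2 fold change was 1.90 (standard error 0.27) for AAV-GFP against vehicle. It was -0.99 (0.28) for AAV-miR-34b/c against AAV-GFP, which was not called in the fit of all 14 libraries but was called without AAV-GFP library 6 (-1.12), by DESeq2, by limma-voom, with library size only and with all 3 groups in one fit. Against vehicle, AAV-miR-34b/c stood at 0.92 (0.28), called with all libraries but in only 5 of the 12 fits that left 1 out, and not with close libraries summed (0.94, 0.34).

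*Gstm3* (ENSMUSG00000004038) was at 12.1, 17.5, 17.7, 15.5 and 18.2 CPM in vehicle, at 41.3 to 128 CPM (median 98.0) in AAV-GFP and at 27.4 to 49.6 CPM (median 39.8) in AAV-miR-34b/c. The groups formed an ascending order from vehicle over AAV-miR-34b/c to AAV-GFP, in which vehicle overlapped with neither TAA group. The AAV-GFP libraries fell into 4 at 98.0 CPM or more and 3 at 59.1 CPM or less, and the latter 3 were the libraries 5, 6 and 7. Log2 fold changes were 2.34 (standard error 0.28), -1.12 (0.24) and 1.23 (0.19) for AAV-GFP against vehicle, AAV-miR-34b/c against AAV-GFP and AAV-miR-34b/c against vehicle. With close libraries summed, the middle difference was -1.08 (0.30) and no longer called.

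*Gstm2* (ENSMUSG00000040562) had the same order of groups with a smaller gap between the TAA groups. It was at 28.7, 35.6, 43.9, 48.7 and 40.8 CPM in vehicle, at 81.6 to 134 CPM (median 98.7) in AAV-GFP and at 59.3 to 108 CPM (median 72.7) in AAV-miR-34b/c. Both TAA groups were wholly above vehicle, with log2 fold changes of 1.41 (standard error 0.18) and 1.02 (0.18), and they overlapped with each other at -0.40 (0.16), which was called with library size only.

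*Gstm4* (ENSMUSG00000027890) was at 45.9, 34.9, 42.6, 44.6 and 50.5 CPM in vehicle, at 56.8 to 92.2 CPM (median 78.0) in AAV-GFP and at 35.6 to 58.1 CPM (median 43.2) in AAV-miR-34b/c. AAV-GFP was wholly above vehicle, at a log2 fold change of 0.82 (standard error 0.16). Of the AAV-miR-34b/c libraries, 6 of 7 were below all AAV-GFP libraries at -0.78 (0.15), a difference not called with close libraries summed (-0.75, 0.17), and against vehicle the value was 0.05 (0.16). *Gstm6* (ENSMUSG00000068762) had means of 45.5 ± 8.77 CPM (SD, n = 5) in vehicle, 61.9 ± 7.20 (SD, n = 7) in AAV-GFP and 51.2 ± 10.2 (SD, n = 7) in AAV-miR-34b/c. Its ranges overlapped throughout, with log2 fold changes of 0.45, -0.28 and 0.18. Of these edgeR called none, and DESeq2 and edgeR with library size only called the first.

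*Gstp1* (ENSMUSG00000060803), on the minus strand of chromosome 19 from 4035407 to 4037985, was the most variable of the 10 genes within each group, relative to its mean. It was at 82.2, 32.6, 28.8, 83.6 and 59.4 CPM in vehicle, at 40.1 to 241 CPM (median 68.3) in AAV-GFP and at 38.1 to 151 CPM (median 64.5) in AAV-miR-34b/c. The log2 fold change of AAV-GFP against vehicle was 0.59 (standard error 0.38) with AAV-GFP library 7, which alone was at 241 CPM, and 0.08 without it. *Gstt1* (ENSMUSG00000001663), on the minus strand of chromosome 10 from 75783813 to 75798584, encodes a theta class enzyme that acts on small halogenated compounds. Its mean was 216 ± 51.1 CPM (SD, n = 5) in vehicle, 158 ± 20.9 (SD, n = 7) in AAV-GFP and 203 ± 30.3 (SD, n = 7) in AAV-miR-34b/c, so that AAV-GFP had the lowest mean, the reverse of *Gsta2*. The ranges overlapped, and the log2 fold changes of -0.45 (0.17), 0.35 (0.13) and -0.08 (0.17) were not called by edgeR. The first was called by limma-voom, and by edgeR without vehicle library 2 (-0.55) or without AAV-GFP library 6 (-0.49).

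**Figure D2:**
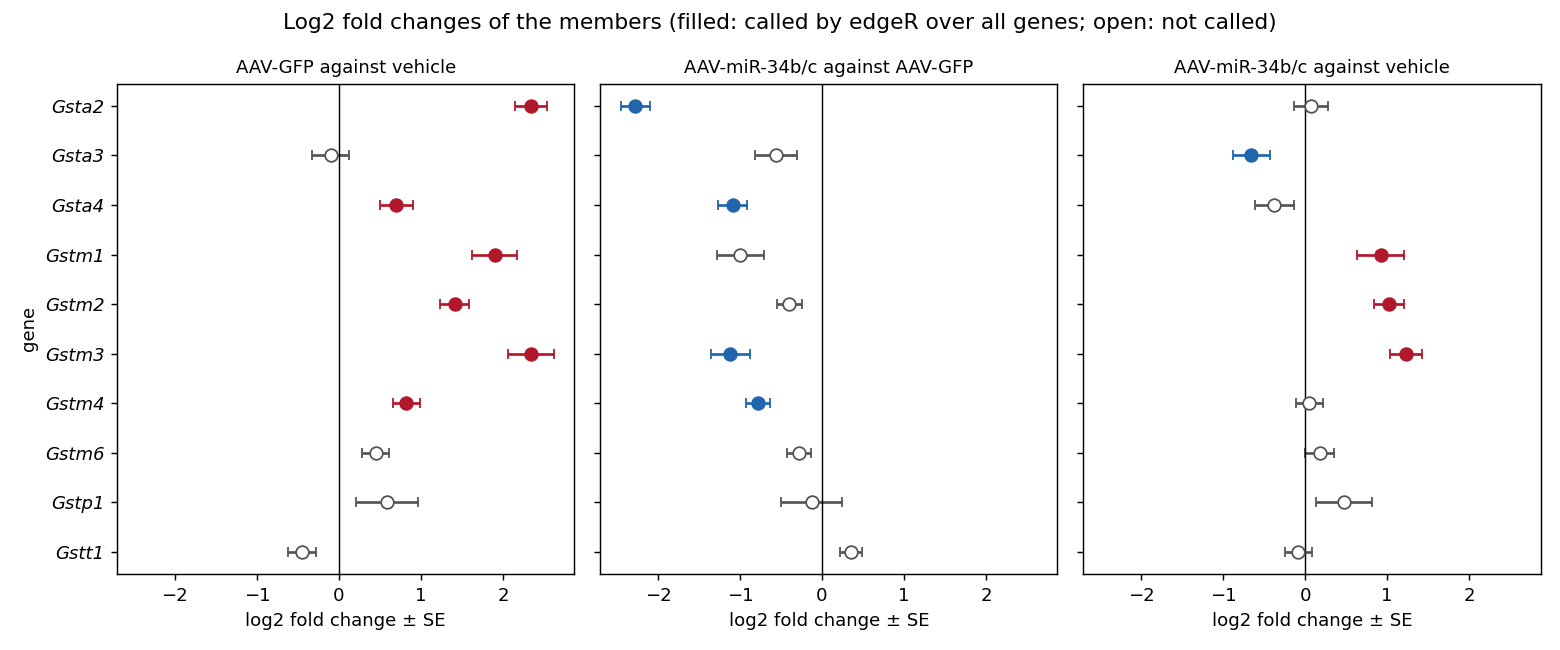
Log2 fold changes (horizontal axis, with their standard errors) of the 10 genes in AAV-GFP against vehicle, AAV-miR-34b/c against AAV-GFP and AAV-miR-34b/c against vehicle. Filled points were called higher (red) or lower (blue) by edgeR over all genes tested and open points were not, and *Gsta2* and *Gstm3* lie farthest from 0 in the first comparison at 2.34 each.

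Counted over the 10 genes, 6 were called higher in AAV-GFP than in vehicle at an edgeR adjusted p under 0.05, where 12.7% of the 9522 genes tested were called, 7.54% higher and 5.19% lower. In AAV-miR-34b/c against AAV-GFP, 4 were called lower (*Gsta2*, *Gsta4*, *Gstm3* and *Gstm4*), beside 3.36% of 9252 genes called, 1.95% higher and 1.42% lower. In AAV-miR-34b/c against vehicle, *Gstm1*, *Gstm2* and *Gstm3* were called higher and *Gsta3* lower, beside 21.9% of 9290 genes called, 12.2% higher and 9.75% lower. With each close pair summed to 1 sample, the calls were 5, 2 and 2, and the share of all genes called in those fits is not given. Since the genes were listed with these differences known, nothing is read from these counts and shares. The 3 comparisons share libraries and are not independent of each other.

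Non-overlap of the groups was counted on the same libraries and genes, so it is a further description and no separate support. All AAV-GFP libraries were above all vehicle libraries for 6 of the 10 genes, a pattern found in 2.57% of all genes tested. All AAV-miR-34b/c libraries were below all AAV-GFP libraries for *Gsta2* and *Gsta4* (0.616% of all genes), and all AAV-miR-34b/c libraries were above all vehicle libraries for *Gstm2* and *Gstm3* (3.96%). The median log2 fold change of the 10 genes was 0.76, -0.67 and 0.13 in the 3 comparisons in the order above, against -0.009, -0.007 and 0.016 over all genes tested.

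Summed over the 10 genes, transcript amounted to 2463 ± 60.0 CPM (SD, n = 5) in vehicle, 3731 ± 408 (SD, n = 7) in AAV-GFP and 2336 ± 186 (SD, n = 7) in AAV-miR-34b/c. *Gsta3* and *Gstm1* made up 75.2% to 85.4% of that sum in each library. In a 3′ library a transcript is counted about once whatever its length, so CPM needs no division by length when genes are compared. *Gstp1* is an exception to such comparison, since reads that fit its copies can have been lost. Its part in these sums and shares is thus uncertain. Alpha class genes held 57.5% to 71.6% of it in vehicle, 29.9% to 68.0% in AAV-GFP and 32.5% to 63.4% in AAV-miR-34b/c, and mu class genes held 17.7% to 29.5%, 25.5% to 64.9% and 21.4% to 57.0%.

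Within groups, *Gstm1* and *Gsta3* ran against each other. In AAV-GFP, library 1 had 2290 CPM of *Gstm1* and 1086 CPM of *Gsta3*, whereas library 6 had 725 and 2519 CPM. In AAV-miR-34b/c, libraries 1 and 2 had 334 and 393 CPM of *Gstm1* beside 1505 and 1562 CPM of *Gsta3*, while the other 5 libraries had 858 CPM of *Gstm1* or more and 965 CPM of *Gsta3* or less. After the group means were subtracted from log2 CPM, Pearson's r between the 2 genes was -0.86 over the 19 libraries. These points share depth and library preparation, and r is given as a description. Of the 45 pairs among the 10 genes, 20 had r of at least 0.5 over all libraries and 4 after the group means were subtracted, among them *Gstm1* with *Gstm3* (0.63) and *Gsta2* with *Gstm2* (0.61). In 3 pairs r was -0.5 or lower after subtraction.

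The same libraries stood apart in measures of the whole library. The share of counts on mitochondrial genes, looked at after the data had been seen, was 3.73% to 5.65% in vehicle, 4.83% to 5.50% in AAV-GFP libraries 5, 6 and 7 and 7.85% to 9.41% in the other 4, and 3.71% and 3.73% in AAV-miR-34b/c libraries 1 and 2 and 8.21% to 10.8% in the other 5. After subtraction of group means, log2 CPM had an r with this share of 0.84 for *Gstm1*, 0.52 for *Gstm3*, 0.36 for *Gsta2*, -0.57 for *Gstp1* and -0.81 for *Gsta3* (19 libraries, as a description).

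The share of counts on 84 ribosomal protein genes, looked at after the data had been seen, ran from 2.21% to 3.0% in vehicle, 1.93% to 3.11% in AAV-GFP and 1.71% to 2.87% in AAV-miR-34b/c. After subtraction of group means, log2 CPM had an r with this share of 0.81 for *Gsta3*, 0.69 for *Gstp1*, -0.73 for *Gstm1*, -0.50 for *Gstm3* and -0.36 for *Gsta2* (19 libraries, as a description). With the share as a covariate in edgeR, the calls of *Gsta2*, *Gsta4*, *Gstm3* and *Gstm4* in AAV-miR-34b/c against AAV-GFP were kept, and *Gsta3* (-0.46, standard error 0.14), *Gstm1* (-1.10, 0.20) and *Gstt1* (0.38, 0.11) were called as well. Against vehicle, AAV-miR-34b/c then lost the calls of *Gsta3*, at -0.42 (0.17) in place of -0.65, and *Gstm1*, at 0.41 (0.24) in place of 0.92, and *Gstp1* was called at 1.04 (0.21) in place of 0.47. In AAV-GFP against vehicle, *Gstm6* was called as well (0.50, 0.16). The percentage of all genes called with the covariate is not given. What sets the mitochondrial or the ribosomal share was not tested.

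**Figure D3:**
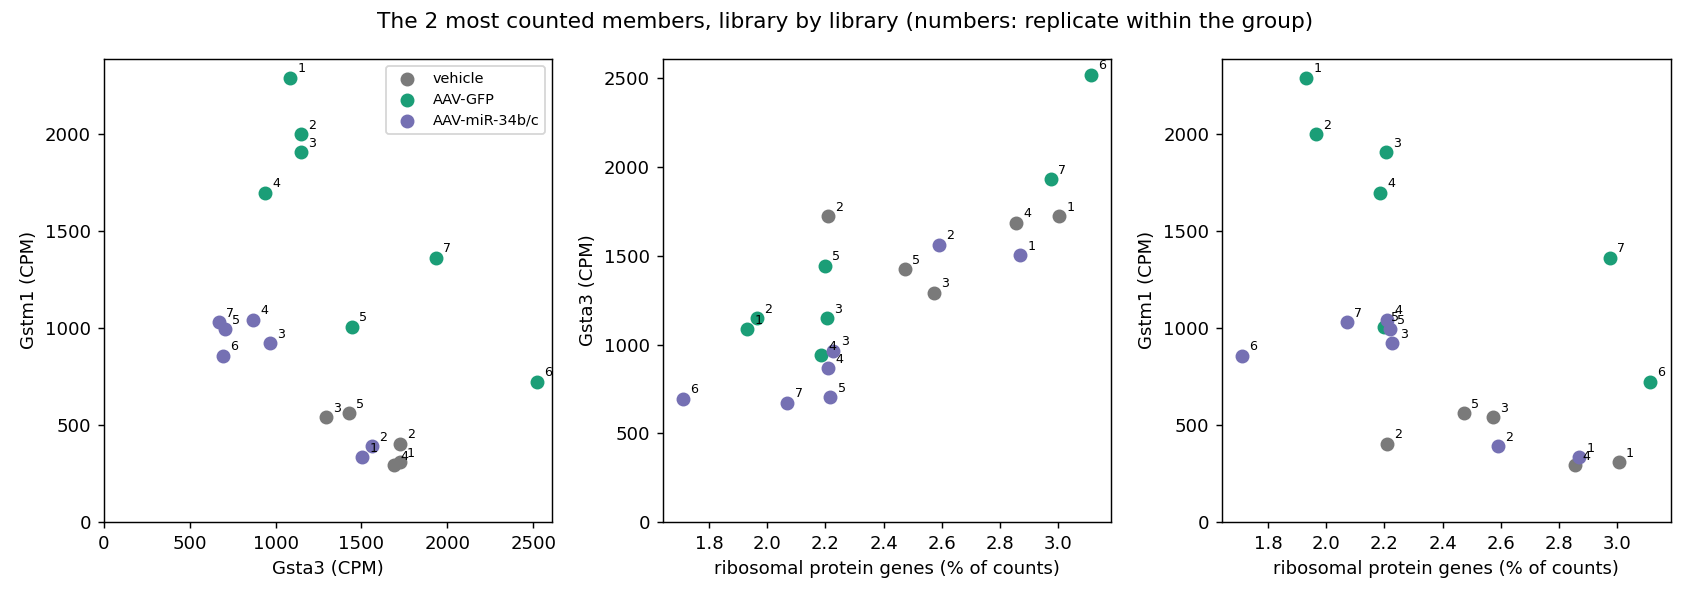
CPM of *Gstm1* against CPM of *Gsta3* (left), and CPM of *Gsta3* (middle) and *Gstm1* (right) against the percentage of counts on 84 ribosomal protein genes, with 1 point per library, coloured by group and numbered by replicate. AAV-GFP library 6 has the highest *Gsta3* (2519 CPM) with the lowest *Gstm1* of its group (725 CPM), and AAV-miR-34b/c libraries 1 and 2 stand near the vehicle libraries.

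Of the other 22 genes of the family, 19 were in the table and 10 passed the filter on low counts. By edgeR, 0 of these 10 were called in AAV-GFP against vehicle, in AAV-miR-34b/c against AAV-GFP or in AAV-miR-34b/c against vehicle. At an unadjusted p under 0.05 the numbers were 2, 2 and 4. DESeq2, which gave an adjusted p for 14, 14 and 12 of the other genes, called 0, 1 (*Gsta1*, below the filter of edgeR) and 0, and limma-voom on the same 10 called 1 (*Gstm7*), 1 (*Mgst3*) and 5 (*Gstk1*, *Gstt2*, *Gstz1*, *Mgst1* and *Mgst3*). Over all genes edgeR called 12.7%, 3.36% and 21.9%, DESeq2 12.3%, 4.71% and 21.8%, and limma-voom 28.2%, 8.79% and 41.3%. *Gstm7*, a mu class gene next to *Gstm6*, was at 54.2, 59.3, 79.8, 42.9 and 74.3 CPM in vehicle and at 52.4 to 129 CPM in AAV-GFP, which is 0.61 on the log2 scale (standard error 0.21, adjusted p of edgeR 0.0637). *Mgst3*, a membrane-bound enzyme of a separate family, had the largest difference of these 10 genes between the TAA groups at -1.17 (0.36, edgeR adjusted p = 0.0833). It had only 1.2 to 8.6 CPM in the TAA libraries.

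The most counted genes outside the 10 were *Mgst1*, the microsomal transferase, and *Gstz1*, the zeta class enzyme that also isomerises maleylacetoacetate in tyrosine breakdown. *Mgst1* averaged 1749, 1509 and 1245 CPM and *Gstz1* 716, 593 and 590 CPM in vehicle, in AAV-GFP and in AAV-miR-34b/c. Within groups, both were higher in libraries with a higher share of ribosomal protein genes (r of 0.77 and 0.83, as a description), as *Gsta3* was. The remaining tested genes (*Gstm5*, *Gstp3*, *Gstt2*, *Gstt3*, *Gstk1* and *Gsto1*) had log2 fold changes from -0.74 to 0.90 over the 3 comparisons. *Gm3776*, *Gstt4*, *Gsto2*, *Mgst2*, *Hpgds* and *Gstcd* were below the filter on low counts, with 1 to 154 counts over all libraries.

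Glutathione, the co-substrate of all these enzymes, is made from cysteine by glutamate-cysteine ligase and glutathione synthetase. Of 18 genes of its synthesis and recycling, 3 of the 16 tested rose and 1 fell in AAV-GFP against vehicle, 1 of 17 rose and 1 fell in AAV-miR-34b/c against AAV-GFP, and 4 of 16 rose and 1 fell in AAV-miR-34b/c against vehicle. Over all genes tested 7.54% rose and 5.19% fell, 1.95% rose and 1.42% fell, and 12.2% rose and 9.75% fell, and these shares are the background of each list that follows. The median log2 fold changes were -0.04, -0.09 and -0.13. Like the other GST genes, these lists were chosen with earlier results of these data known, so their adjusted p-values are a description. *Gclc*, the catalytic subunit of the ligase, was at 134 to 158 CPM in vehicle, 291 to 497 CPM in AAV-GFP and 145 to 213 CPM in AAV-miR-34b/c. It rose by 1.53 on the log2 scale in AAV-GFP over vehicle (standard error 0.16, edgeR adjusted p = 6.92e-06) and fell by 1.31 in AAV-miR-34b/c against AAV-GFP (0.14, edgeR adjusted p = 2.97e-05). No AAV-GFP library overlapped with either other group. *Gclm*, the modifier subunit of the same enzyme, had log2 fold changes of 0.00, -0.33 and -0.32, and edgeR called none (edgeR adjusted p = 0.995, 0.198 and 0.0861), while DESeq2 and limma-voom called the last and edgeR with library size only the last 2.

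*Cbs*, which starts the conversion of homocysteine to cysteine, was higher in both TAA groups than in vehicle, by 1.02 in AAV-GFP and 1.10 in AAV-miR-34b/c (edgeR adjusted p = 0.0102 and 0.00404). *Chac2*, which degrades glutathione, was lower in both, with log2 fold changes of -1.04 and -1.40 (edgeR adjusted p = 0.0209 and 0.00971), and its first call was lost without vehicle library 1 (-0.84) or 5 (-0.95). *Mat1a*, which makes S-adenosylmethionine, was higher in AAV-miR-34b/c than in AAV-GFP by 0.87 (edgeR adjusted p = 0.00477) and than in vehicle by 0.56 (edgeR adjusted p = 0.0172), the latter not called without vehicle library 4 (0.54). *Pgd*, of the pentose phosphate pathway that supplies NADPH, was higher in AAV-miR-34b/c than in vehicle by 0.92 (edgeR adjusted p = 0.00734). In AAV-GFP it was higher than in vehicle by 0.71 (edgeR adjusted p = 0.0404), which was called in only 5 of the 12 fits that left out 1 library (0.58 to 0.94).

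After conjugation, glutathione adducts leave the cell through ABC transporters and are trimmed to mercapturates. Of 16 genes listed for these steps and for bile acid uptake, 1 of 13 tested rose and 1 fell in AAV-GFP against vehicle, and 3 of 12 rose and 1 fell in AAV-miR-34b/c against vehicle, where 12.7% and 21.9% of all genes were called. Between the TAA groups edgeR called 0 of 12, with 4 at an unadjusted p under 0.05, DESeq2 called 0 and limma-voom 1, and edgeR with the ribosomal covariate called 4 (*Abcc3*, *Abcc6*, *Nat8f1* and *Nat8f2*). The share of all genes called with this covariate is not given. *Abcc3*, an exporter on the blood side of hepatocytes, was higher in AAV-GFP by 1.06 (edgeR adjusted p = 0.0118). *Slc10a1*, the main bile acid uptake carrier, was lower than vehicle in both TAA groups, at -0.70 in AAV-GFP (edgeR adjusted p = 0.0395) and -0.90 in AAV-miR-34b/c (edgeR adjusted p = 0.000925), and the first call was kept in only 3 of the 12 fits that left out 1 library (-0.84 to -0.59). *Ggt6*, of the gamma-glutamyltransferase family, was higher in AAV-miR-34b/c than in vehicle by 1.52 (edgeR adjusted p = 0.00143).

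Of 21 NRF2 target genes outside the GST and glutathione lists, 4 of 19 tested rose in AAV-GFP against vehicle (*Ephx1*, *Ftl1*, *Aox1* and *Cbr3*) and 3 of 19 fell in AAV-miR-34b/c against AAV-GFP (*Ephx1*, *Cbr3* and *Aox1*), where 7.54% of all genes rose and 1.42% fell. Most of the list was thus not called in either. The medians were 0.31 and -0.24. *Ephx1*, the microsomal epoxide hydrolase, was at 128 to 176 CPM in vehicle, 292 to 440 CPM in AAV-GFP and 129 to 203 CPM in AAV-miR-34b/c, with log2 fold changes of 1.32 and -1.19 (edgeR adjusted p = 3.57e-05 and 7.66e-05). *Aox1*, an aldehyde oxidase, had 1.06 and -1.33 (edgeR adjusted p = 0.00819 and 0.012), and *Cbr3*, a carbonyl reductase, 1.39 and -1.95 (edgeR adjusted p = 0.0119 and 0.0106) on only 1 to 30 counts per library. *Ftl1*, the ferritin light chain, was higher than vehicle in both TAA groups, by 0.997 and 0.792 (edgeR adjusted p = 0.00812 and 0.00778).

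*Nqo1*, the quinone reductase often used to read NRF2 activity, had log2 fold changes of 0.42, -0.58 and -0.14 with 1 to 31 counts per library, and none was called (edgeR adjusted p = 0.501, 0.592 and 0.865). *Blvrb*, a flavin reductase, fell by 0.83 in AAV-miR-34b/c against vehicle (edgeR adjusted p = 0.00234). In that comparison 1 of 18 tested targets rose and 1 fell.

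Of 9 genes of NRF2, its relatives, partners and inhibitors, 3 of 9 rose in AAV-GFP against vehicle, 1 of 9 fell in AAV-miR-34b/c against AAV-GFP and 3 of 8 rose in AAV-miR-34b/c against vehicle, beside 7.54%, 1.42% and 12.2% of all genes in the same directions. *Maff*, a small MAF partner, was at 0.887 to 6.87 CPM in vehicle, 7.26 to 16.4 CPM in AAV-GFP and 0.795 to 3.24 CPM in AAV-miR-34b/c, so that AAV-GFP overlapped with neither group. Its log2 fold changes were 1.72 and -2.58 (edgeR adjusted p = 0.00722 and 0.000145). *Mafg*, another small MAF gene, was instead higher in both TAA groups, by 1.15 and 1.18 over vehicle (edgeR adjusted p = 0.00903 and 0.00558).

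*Nfe2l2*, the gene of NRF2 itself, was at 61.0 to 72.7 CPM in vehicle, 69.8 to 97.1 CPM in AAV-GFP and 44.8 to 75.0 CPM in AAV-miR-34b/c. Its log2 fold changes of 0.23, -0.50 and -0.25 were not called (edgeR adjusted p = 0.294, 0.0599 and 0.23). The middle one was called by DESeq2, by limma-voom, and by edgeR with library size only, with all 3 groups in one fit, with at least 10 counts in every library, with the ribosomal covariate or without AAV-miR-34b/c library 7 (-0.58). *Nfe2l1*, a relative of NRF2, was higher than vehicle by 0.97 in AAV-GFP (edgeR adjusted p = 0.0301) and 0.91 in AAV-miR-34b/c (edgeR adjusted p = 0.0146), with the first call kept in 4 and the second in 11 of 12 fits that left out 1 library. *Keap1* was higher in AAV-miR-34b/c than in vehicle by 0.58 (edgeR adjusted p = 0.0275), called in 6 of 12 such fits.

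CAR and PXR are nuclear receptors that also induce GST genes in liver. Of 18 genes of these receptors and their targets, 1 of 13 tested rose and 1 fell in AAV-GFP against vehicle, 1 of 12 fell in AAV-miR-34b/c against AAV-GFP, and 2 of 12 rose and 5 fell in AAV-miR-34b/c against vehicle, beside 12.7%, 3.36% and 21.9% of all genes called. *Por*, which passes electrons to cytochromes P450, fell by 1.28 in AAV-GFP against vehicle (edgeR adjusted p = 5.36e-05) and by 0.87 in AAV-miR-34b/c against vehicle (edgeR adjusted p = 0.0168), and *Cyp3a11*, a cytochrome P450, rose by 1.06 in AAV-GFP against vehicle (edgeR adjusted p = 0.015). *Slco1a4*, an uptake carrier, fell by 1.32 in AAV-miR-34b/c against AAV-GFP (edgeR adjusted p = 0.0186) and by 2.23 against vehicle (edgeR adjusted p = 0.000125). *Alas1*, the first enzyme of heme synthesis, and *Nr1i3*, the gene of CAR, fell by 1.02 and 0.998 in AAV-miR-34b/c against vehicle (edgeR adjusted p = 0.00162 and 0.00687). With each close pair summed to 1 sample, the calls over these 5 lists, 15, 7 and 21 in the 3 comparisons, were 4 (*Ephx1*, *Gclc*, *Maff* and *Por*), 4 (*Cbr3*, *Ephx1*, *Gclc* and *Maff*) and 2 (*Slc10a1* and *Slco1a4*). The share of all genes called in the summed fits is not given.

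Across all 19 libraries, the genes outside the family with the highest Pearson's r of log2 CPM with *Gsta2*, of 9907 compared, were *Ephx1* (0.94), *Gclc* (0.92), *Sox4* (0.91), *Col1a1* (0.89) and *Nr4a1* (0.87). The libraries form 2 clusters, AAV-GFP and the rest, and r mainly carries the distance between them. *Col1a1*, a collagen gene, is 1 of the 15 HSC markers, and its mean was 4.87, 26.5 and 6.99 CPM in vehicle, in AAV-GFP and in AAV-miR-34b/c. After group means were subtracted the first 5 were others, *Ssbp4* (0.80), *Snhg11* (0.76), *Slc39a14* (0.74), *Zfp507* (0.73) and *Sema6b* (0.73). These are descriptions over libraries that share depth and preparation.

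**Figure D4:**
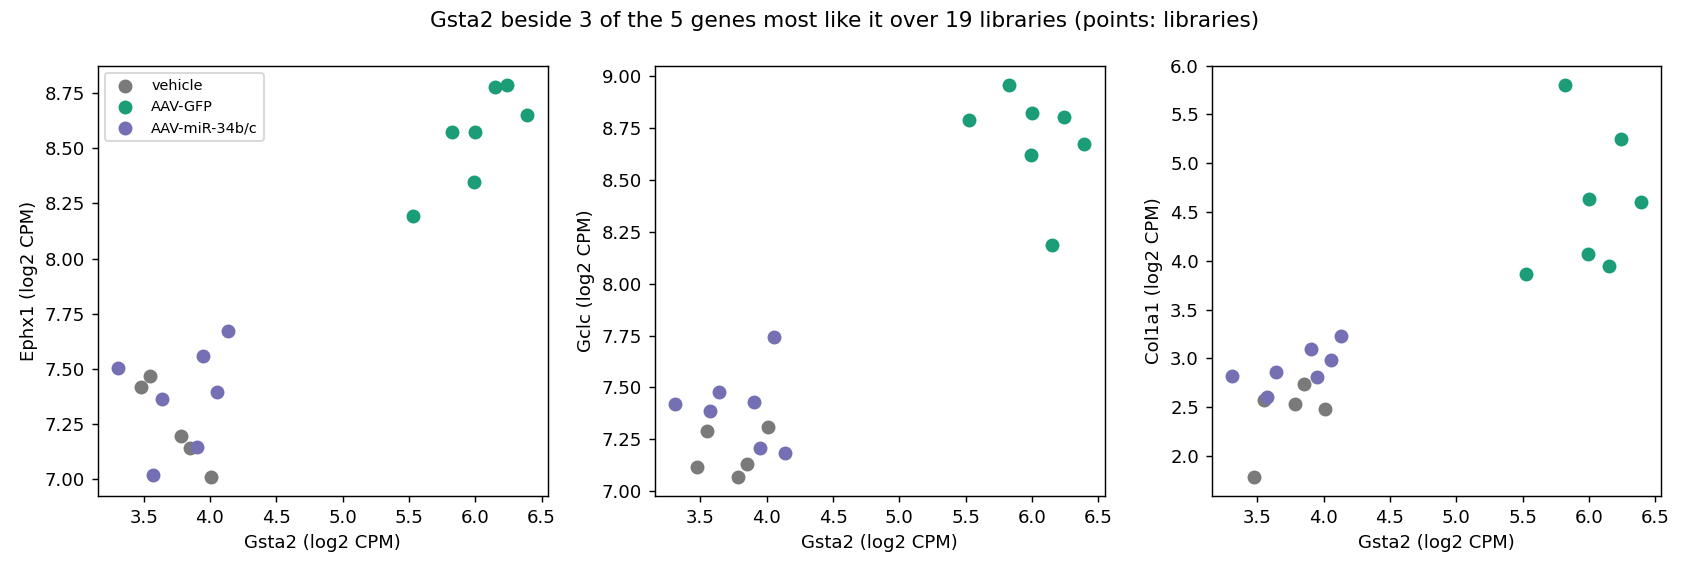
Log2 CPM of *Ephx1*, *Gclc* and *Col1a1* against log2 CPM of *Gsta2*, with 1 point per library coloured by group. The 7 AAV-GFP libraries form a cluster apart from the 12 vehicle and AAV-miR-34b/c libraries, which overlap.

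The antioxidant response element was looked for by its core TGACNNNGC on both strands of promoter windows of 250 bases before to 50 bases after the start (RefSeq, GRCm38.p6). Windows were at hand for 9 of the 10 genes, all but *Gsta4*, and 1 of the 9 held the core, the window of *Gsta3*, where 12.39% of all 32851 windows and 13.99% of 27025 genes did. The match of *Gsta3* is shown as the only one among the 9. It starts 121 bases before the start of the gene, in chr1:21240444-21240492 on the plus strand, with the core in capitals.
Gsta3: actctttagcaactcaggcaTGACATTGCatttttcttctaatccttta
Among the other GST genes 3 of 18 with a window held the core (*Gstm5*, *Gstm7* and *Mgst1*). Functional elements of GST genes can lie farther upstream than these windows reach, and a match or its absence is a statement on letters only.

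The vectors of the AAV-miR-34b/c group carry miR-34b and miR-34c, which act through matches to their seed in 3′ UTRs. The mature miR-34b-5p (RefSeq, GRCm38.p6, chr9:51103610-51103632 on the minus strand) is shown with its seed, bases 2 to 8, in capitals.
miR-34b-5p: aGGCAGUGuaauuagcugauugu
Its match CACTGCC was in 0 of the longest annotated 3′ UTRs of the 10 genes, and in 17.19% of those of 9757 genes tested. The UTRs of the 10 genes are short, with a median of 363.5 bases against 1192 bases over the genes tested, and of the other GST genes *Gsto1* held 1 match.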

How the data were processed

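RNA of mouse livers was sequenced in 19 libraries with a 3′ mRNA kit (QuantSeq, 100 ng of RNA per the labels, single-end reads of 100 bases). The counts per gene were deposited by the authors in a single table without normalization. The labels' processing notes name STAR and the build mm10, while the counter, the annotation used for it, its strand setting and any molecular identifiers are not given in the sources used here, so counts can include PCR duplicates. Groups were taken from the labels. Symbols, positions and transcript ends came from GENCODE M21, for 30934 of 31053 genes, of which 13985 had no count.

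Each pair of groups was fitted separately with edgeR 4.0.16 in R 4.3.3 (TMM, filterByExpr at its minimum count of 10 and total of 15, glmQLFit, glmQLFTest, no covariate), and a gene was called at a Benjamini-Hochberg adjusted p under 0.05 over all genes tested. The fit was also run on simulated counts, drawn independently for each library and so without close pairs, and its outcome is not given here. Levels are CPM on TMM-normalized library sizes, log2 CPM with a prior count of 2, and errors are SD between libraries or the standard error of the fitted log2 fold change. The choices varied were the filter (none, or 10 counts or more in all libraries), the scaling (library size only, or size factors of DESeq2), the tool (DESeq2 1.42.0, or limma-voom of limma 3.58.1 with sample weights), a joint fit of the 3 groups, a replicate block, close libraries summed, near-identical copies summed, each library left out in turn and, added after the data were seen, the share of ribosomal protein genes as covariate. The 10 genes and the gene lists were chosen with earlier results of these data known. The genes named are the 10, all other GST genes with a count, up to 3 called genes with the smallest adjusted p of each list and comparison, *Gclc*, *Gclm*, *Nqo1* and *Nfe2l2*, and the 5 genes most like *Gsta2* before and after subtraction of group means. A result that this rule would name is not reported here.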

Additional observations from a re-analysis of the deposited data

Results flagged for a closer look

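Of 69 sets of values within a group that were screened for a library far from the others, 4 held one, where chance gives about 1 in 20. *Gsta4* was at 81.6 CPM in AAV-GFP library 6, with the next library at 67.5 CPM. *Gstp1* was at 241 CPM in AAV-GFP library 7, with the next at 75.8 CPM. *Gsto1*, an omega class gene, was at 39.0 CPM in AAV-miR-34b/c library 2, with the next at 49.2 CPM. The total count of AAV-GFP library 5 was 4383805, with the next at 3239809.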

How the results depend on the processing

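The rises of *Gsta2*, *Gstm1*, *Gstm2*, *Gstm3* and *Gstm4* with AAV-GFP over vehicle and the lower *Gsta2* and *Gsta4* with AAV-miR-34b/c than with AAV-GFP were called under each alternative run, each library left out included. The count of the 10 genes called in AAV-miR-34b/c against AAV-GFP, 4 as reported, was 7 by library size only, 2 with close libraries summed and 7 with the ribosomal covariate, and that against vehicle, also 4, was 2 with close libraries summed and 2 to 4 with 1 library left out. Library size only also moved the median of all genes from -0.007 to -0.20 in the first and from 0.016 to -0.13 in the second of these comparisons. The share of all genes called is given only for edgeR as reported, DESeq2 and limma-voom. Under every other setting, here and below, a change in a count of calls cannot be told from a change over all genes. The causes of the other changes were not tested, except that summing leaves 3, 6 and 4 samples in vehicle, in AAV-GFP and in AAV-miR-34b/c.

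Of the other GST genes, 0 as reported, 1 was called in AAV-GFP against vehicle with at least 10 counts in every library, by library size only or by limma-voom. In AAV-miR-34b/c against AAV-GFP 1 was called without a filter, by library size only, DESeq2, limma-voom or the covariate, and against vehicle 2 by library size only and 5 by limma-voom. With 1 library left out there were 0 to 1 in each comparison. Calls over the pathway lists together, 15, 7 and 21 as reported, were 24 (DESeq2), 25 (limma-voom) and 4 (close libraries summed) in AAV-GFP against vehicle, 14 (library size only), 12 (DESeq2 or all 3 groups in one fit), 15 (limma-voom or the covariate) and 4 (summed) in AAV-miR-34b/c against AAV-GFP, and 35 (limma-voom) and 2 (summed) in AAV-miR-34b/c against vehicle. On plain library totals 5 pairs of the 10 genes in place of 3 had r of -0.5 or lower within groups, and with the last 1000 bases 6 genes in place of 2 shared a stretch with another gene.

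Direction changed only for values that were not called under the setting that changed it. Against vehicle, AAV-miR-34b/c gave -0.0686 (library size only) and -0.0129 (covariate) for *Gsta2*, -0.0856 (library size only) and -0.0298 (limma-voom) for *Gstm4*, -0.0120 (covariate) for *Gstm6*, 0.00925 (covariate) for *Gstt1* and 0.27 (covariate) for *Nqo1*. Against AAV-GFP it gave 0.0449 (limma-voom) and 0.0138 (covariate) for *Gstp3*, -0.00485 (at least 10 counts), -0.19 (library size only) and -0.0913 (summed) for *Gstk1* and 0.0497 (covariate) for *Gstz1*. AAV-GFP against vehicle gave 0.0377 (covariate) for *Gsta3*, and -0.0347 (limma-voom) and -0.000877 (all 3 groups in one fit) for *Gclm*. With 1 library left out, values ran from -0.0196 to 0.11 for *Gstm4*, -0.19 to 0.0289 for *Gstt1* and -0.47 to 0.12 for *Nqo1* in AAV-miR-34b/c against vehicle, from -0.36 to 0.38 for *Gstp1*, -0.16 to 0.0584 for *Gstp3*, -0.0641 to 0.0707 for *Gstk1* and -0.0959 to 0.0888 for *Gstz1* in AAV-miR-34b/c against AAV-GFP, and from -0.0363 to 0.32 for *Gstt3* and -0.0537 to 0.0923 for *Gclm* in AAV-GFP against vehicle.

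The groups share replicate numbers but no animal, and same-numbered libraries did not deviate together (r from -0.28 to 0.28, best with the own number in 3 of 17 cases). Vehicle has no library 6 or 7, so with the replicate block the TAA libraries 6 and 7 do not enter the differences from vehicle. In AAV-GFP these libraries had the highest *Gsta3*, at 2519 and 1932 CPM. With the replicate block, 8 of the 10 genes were called in AAV-GFP against vehicle, with *Gsta3* (-0.44) and *Gstt1* (-0.49) lower as well, 2 of the 10 in AAV-miR-34b/c against vehicle, 4 other GST genes and 28 pathway genes in AAV-GFP against vehicle, and the values that changed sign were -0.00567 for *Gstm4*, 0.00228 for *Gstt1* and 0.0733 for *Nqo1* in AAV-miR-34b/c against vehicle, 0.00876 for *Gstp1* in AAV-miR-34b/c against AAV-GFP and -0.0938 for *Gclm* in AAV-GFP against vehicle. The depth limits what can be said of *Nqo1*, *Cbr3*, *Mgst3* and *Gsta1*, each with few counts in a library.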
